A study of Homo sapiens with 12 samples.

Results

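Mitochondrial ribosomal protein genes were taken as the protein-coding genes of the expression table whose symbol starts with MRPL or MRPS followed by a number. There were 77 of them among 63568 genes in the table, 48 named for the large subunit (MRPL) and 29 named for the small subunit (MRPS), and all 77 passed the filter that left 16337 genes for testing (a level of 1 TPM or above in 2 or more libraries, where TPM is the length-adjusted share of a gene in the library). The choice went by symbol alone, though earlier results of these data were known when it was made. RNA came from LNCaP cells, an androgen-sensitive line grown from a lymph node metastasis of a prostate cancer, and was sequenced in 12 libraries. The cells received a non-targeting siRNA pool (si-NT, 2 libraries at each time) or either of 2 siRNAs against SMARCA4, the gene of the chromatin remodelling ATPase BRG1 (2 libraries for each siRNA at each time, 4 BRG1-depleted libraries at each time), and were collected 72 h or 144 h after the first transfection. Cells of the later time point, si-NT cells included, were harvested at 72 h, divided and transfected again. The siRNAs are called numbers 2 and 3 here, as in the expression table. LNCaP is a single tumour line, and nothing in the sources used here says whether libraries of a group came from separate cultures, so the p-values measure the spread between these libraries, which may be technical.

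The mitochondrial ribosome translates the few messenger RNAs that the mitochondrial genome encodes, all of them for subunits of the respiratory chain and the ATP synthase. Its RNA is transcribed inside the organelle, whereas its proteins are encoded by nuclear genes scattered over the genome, made in the cytosol and imported. The small subunit holds the messenger RNA and its decoding site, and the large subunit joins the amino acids and carries the exit tunnel to the inner membrane. The 77 genes lay on 21 chromosomes, with no more than 8 on any of them (chromosome 1). MRPS18A and MRPS30 carry small-subunit names, but structures of the ribosome place both proteins in the large subunit, and the MRPS36 protein belongs to the 2-oxoglutarate dehydrogenase complex. The subunits were therefore compared by symbol and again by structure.

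The siRNAs lowered their target. SMARCA4 was at 97.01 and 73.44 TPM with si-NT and between 17.48 and 21.7 TPM after depletion at 72 h, and at 94.5 and 106.59 TPM with si-NT and between 11.42 and 17.44 TPM after depletion at 144 h. The log2 fold change was -2.07 ± 0.16 (SE) at 72 h (limma adjusted p = 0.000538) and -2.66 ± 0.16 at 144 h (limma adjusted p = 1.01e-05). Markers of the line were present, with KRT8 at 303.36 TPM or more and HOXB13 at 118.37 TPM or more in each library. Of 10 measured markers of fibroblasts, leukocytes, endothelium and basal epithelium, COL1A1 alone passed the filter (9.11 TPM or less), CD3E and COL1A2 were listed at 0 throughout, and the others stayed at 0.77 TPM or less. ERCC spike-in RNA took 0.805% to 1.97% of the TPM of a library.

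Promoters of this gene set are shown first, from 120 bases before to 30 bases after the start of transcription. They are those of the member of each subunit, by symbol, with the largest fall at 144 h and of the member with the largest rise. MRPL17 and MRPL41 encode large-subunit proteins, and MRPL41 was picked after its values were seen. MRPS18A has a small-subunit name, but its protein sits in the large subunit, so no promoter of a small-subunit protein by structure is shown. The sequences are from RefSeq (GRCh38.p14) on the strand of the gene, and capitals mark letters of the motifs searched: CGCATGC for NRF1, CCGGAAG for ETS factors such as GABPA, AAGATGG for YY1 and CACGTG for the E-box that MYC and its relatives bind.

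MRPL17, chr11:6683311-6683460, minus strand: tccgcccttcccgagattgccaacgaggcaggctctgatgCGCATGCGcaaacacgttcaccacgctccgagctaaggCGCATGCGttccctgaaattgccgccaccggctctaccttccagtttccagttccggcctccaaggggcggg

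MRPS18A, chr6:43687762-43687911, minus strand: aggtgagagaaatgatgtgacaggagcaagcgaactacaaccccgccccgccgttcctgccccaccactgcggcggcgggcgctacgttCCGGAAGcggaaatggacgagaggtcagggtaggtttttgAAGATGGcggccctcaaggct

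MRPL41, chr9:137551759-137551908, plus strand: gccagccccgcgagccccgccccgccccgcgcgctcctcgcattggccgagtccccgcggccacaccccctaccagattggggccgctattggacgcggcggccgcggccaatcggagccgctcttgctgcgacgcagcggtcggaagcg

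In the MRPL17 promoter the NRF1 motif occurred at -80 and -42 on the gene's strand and, being almost its own reverse complement, at -79 and -41 on the other (positions are of the first base, counted from the start of transcription). The MRPS18A promoter held the ETS motif at -31 and the YY1 motif at 10 bases into the transcript. None of the 4 motifs was found in the MRPL41 window. Of the 77 members, 68 had a RefSeq promoter window (250 bases before to 50 after the start), and both strands were searched. The ETS motif was in 42.6% of them, against 20.0% of the 9736 other tested protein-coding genes with a window and 10.7% of all 27305 windows. The YY1 motif was in 32.4%, against 7.62% and 6.06%. The NRF1 motif was in 10.3% (6.73% and 4.13%), and the E-box was in 7.35% (10.5% and 7.43%), and none of the 4 motifs contains another. Large and small subunits carried the motifs at like shares, 41.5% and 44.4% for ETS and 31.7% and 33.3% for YY1. A match is a description of the letters, not evidence of binding.

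The members were well expressed. Over the 4 si-NT libraries their mean levels ran from 7.09 to 373 TPM with a median of 99.3 TPM, and together they made up 0.685% to 0.91% of the TPM of a library. In the large subunit the highest levels were those of MRPL20 (373 ± 35.7 TPM, SD, n = 4), MRPL24 (352 ± 27.3 TPM) and MRPL51 (333 ± 27.5 TPM), which lay within the spread between libraries of each other. The lowest were MRPL30 (7.09 ± 2.66 TPM), MRPL50 (29.2 ± 3.38 TPM) and MRPL44 (44.3 ± 2.95 TPM), and these ranges did not meet. In the small subunit MRPS15 (224 ± 20.4 TPM), MRPS34 (216 ± 17.8 TPM) and MRPS33 (190 ± 16.7 TPM) stood highest, and MRPS10 (16.7 ± 1.34 TPM), MRPS31 (17.9 ± 3.18 TPM) and MRPS21 (27.9 ± 2.75 TPM) lowest. Ribosomal proteins are assembled in fixed proportions, but the transcripts of their genes were not equally abundant in these libraries. The table also listed 73 MRPL or MRPS pseudogenes, which belong to 34 of the genes. Only 2 of the pseudogenes reached 1 TPM in any library, and the highest had a mean of 1.38 TPM.

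Summed over each subunit, expression differed little between groups at 72 h and was lower in each BRG1-depleted library than in both si-NT libraries at 144 h. At 72 h the 48 large-subunit genes summed to 5888.2 and 4925.5 TPM with si-NT, to 5417.2 and 4445.2 TPM with siRNA 2, and to 5461.5 and 5685.4 TPM with siRNA 3. These groups overlapped, and the 2 si-NT libraries differed from each other by more than the group means did. At 144 h the sums were 5599.7 and 6058.4 TPM with si-NT, 4906.4 and 5187.7 TPM with siRNA 2, and 4903.6 and 5308.7 TPM with siRNA 3, and the groups did not overlap. The mean fell by 12.9% in the large subunit (5829 ± 324 TPM, SD, n = 2, to 5077 ± 204 TPM, n = 4) and by 13.5% in the small subunit (2965 ± 110 TPM to 2563 ± 96.7 TPM). The lower si-NT library at 72 h (4925.5 TPM) lay within the range of the depleted libraries at 144 h. At 72 h the differences of the means were -2.86% and -2.82%.

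**Figure D1:**
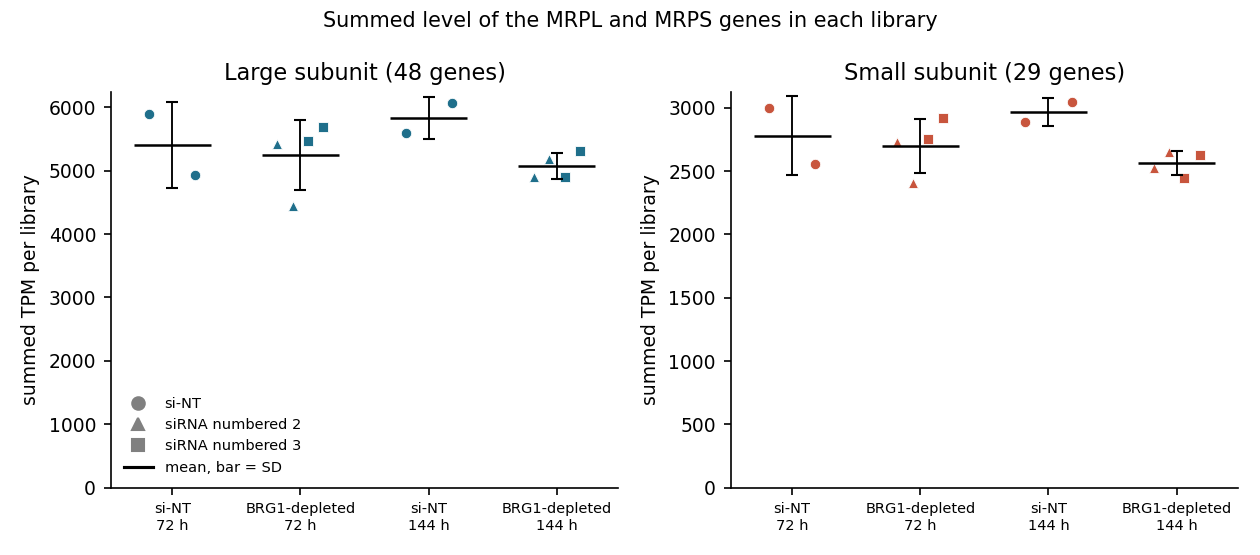
Summed TPM of the 48 large-subunit genes (left) and the 29 small-subunit genes (right) in each library, by group on the x axis, with each point a library, its shape the siRNA, the line the group mean and the bar the SD. The 4 BRG1-depleted libraries at 144 h lie below both si-NT libraries of that time in both panels, while the groups overlap at 72 h.

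The summed levels of the subunits kept step with each other. The ratio of the large-subunit sum to the small-subunit sum was between 1.85 and 2.02 in the 12 libraries, and its mean was 1.94 ± 0.02 (SD, n = 2) and 1.95 ± 0.07 (n = 4) at 72 h and 1.96 ± 0.04 (n = 2) and 1.98 ± 0.04 (n = 4) at 144 h with si-NT and after depletion. The ratio after depletion thus differed from the si-NT ratio by less than the SD between depleted libraries at both times. In 10 of the 12 libraries the median deviation of both subunits from their mean over libraries had the same sign.

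BRG1 depletion changed no member past the threshold at 72 h. None of the 77 was called at a limma adjusted p below 0.05, against 0.557% of all tested genes called lower and 1.13% called higher, and at an unadjusted p below 0.05 there were 2 lower (MRPS18A and MRPS2, against 4.63% of all genes) and 0 higher (9.68%). The median log2 fold change was -0.07 (-0.10 in the large and -0.03 in the small subunit, 0.06 over all genes), and 56 of 77 values were below 0 (39.7% of all genes). The direction of this small median rested on the controls: without si-NT replicate 1 the medians were 0.06 in both subunits, and without si-NT replicate 2 they were -0.23 and -0.16. The large minus small difference of medians was -0.07 (-0.07 by structure), beyond the spread between replicate libraries of a group (0.0439, pooled SD). It was -0.0004 without si-NT replicate 1.

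MRPS18A came nearest to the threshold at 72 h. MRPS18A (chr6:43638939-43655528 on GRCh37, minus strand) was at 75.31 and 62.76 TPM with si-NT, at 48.6 and 47.42 TPM with siRNA 2, and at 54.38 and 56.96 TPM with siRNA 3. All 4 depleted libraries were below both controls, and the log2 fold change was -0.40 ± 0.11 (SE, limma adjusted p = 0.109). MRPL4, MRPL12, MRPL37, MRPS2 and MRPS12 also had groups that did not overlap at 72 h, which makes 6 of 77 members, or 7.79%, against 6.93% of all genes.

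At 144 h, 19 of the 77 members were called lower and 0 higher. That is 24.7% of them, against 10.8% of all tested genes called lower and 13.6% called higher, and against 13.3% called lower among the 8826 tested protein-coding genes within the members' range of mean TPM. At an unadjusted p below 0.05 there were 30 lower (16.6% of all genes) and 1 higher, MRPS21 (20.2%). The changes were small: the median was -0.25 on the log2 scale (0.03 over all genes), the largest fall was 0.64, and no member passed a log2 fold change of 1.5. Of the 77 values, 65 were below 0 (84.4%, against 47.3% of all genes), and in 42 members each depleted library was below both si-NT libraries (54.5%, against 22.5%). The calls depended on the 2 control libraries of that time. Without si-NT replicate 1 at 144 h there were 6, and without si-NT replicate 2 there were 0 (13 at an unadjusted p below 0.05), where the calls over all genes went from 3983 to 1150. Without siRNA 2 replicate 1 at 144 h there were 10, where 8.9% of all genes were called lower. With scaling to the spike-ins there were 0, where 3.76% of all genes were called lower. In that fit 40 members had an unadjusted p below 0.05, a share not given for all genes, whose median was -0.31. The factor of this scaling, the spike-in share relative to the 12 libraries, was 0.667 and 1.11 with si-NT at 144 h. After depletion it was between 0.866 and 1.63, so the groups overlapped. MRPL3, MRPL19, MRPL35, MRPL47, MRPS2 and MRPS18A kept the call without each library other than si-NT replicate 2 at 144 h. In these bulk libraries fewer cells with a high level and a lower level in each cell cannot be told apart.

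**Figure D2:**
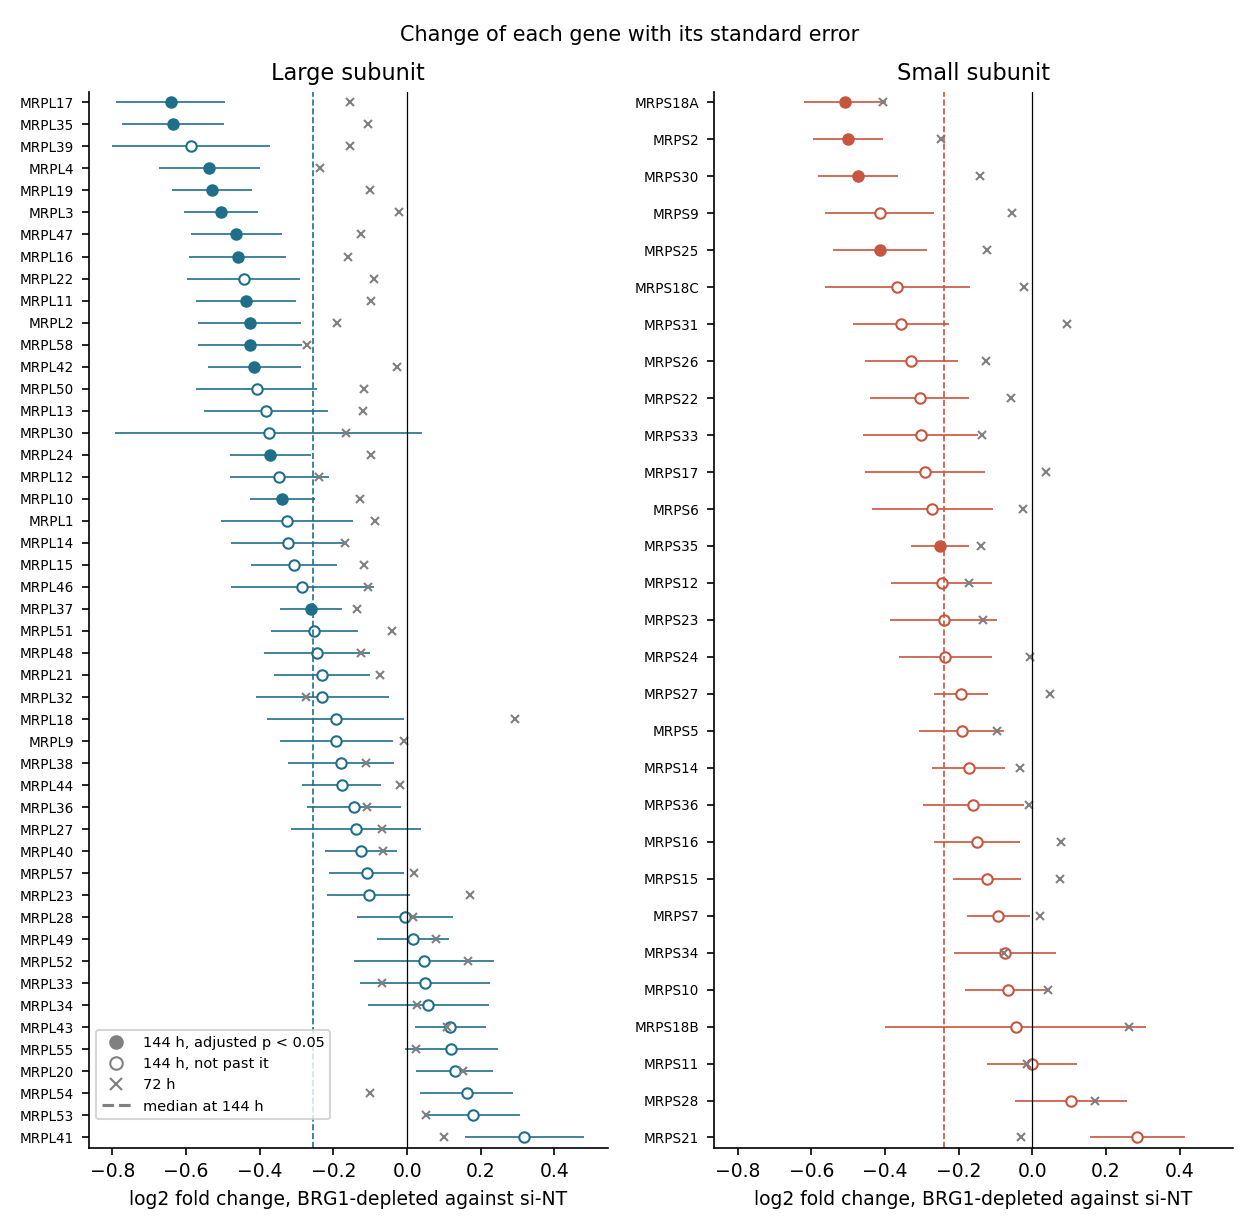
Log2 fold change of BRG1-depleted against si-NT libraries (x axis) for each gene of the large (left) and small (right) subunit, ordered by the value at 144 h. Circles with bars are the value and SE at 144 h, filled where the limma adjusted p is below 0.05 (14 large-subunit and 5 small-subunit genes, all lower), crosses are the value at 72 h, and dashed lines are the medians at 144 h (-0.26 and -0.24).

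By subunit, 14 of 48 large-subunit genes (29.2%) and 5 of 29 small-subunit genes (17.2%) were called lower at 144 h. The medians were close, -0.26 and -0.24, and differed by -0.02. This difference was smaller than the spread between replicate libraries of a group (0.0439, pooled SD). When MRPS18A and MRPS30 were counted with the large subunit, where their proteins sit, and MRPS36 was left out, the counts were 16 of 50 (32.0%) and 3 of 26 (11.5%), and the medians differed by -0.03. Of the small-subunit values 27 of 29 were below 0, and of the large-subunit values 38 of 48. The large subunit thus held both the largest falls and 10 of the 12 values above 0.

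In the large subunit the 5 largest called falls were those of MRPL17, MRPL35, MRPL4, MRPL19 and MRPL3. MRPL17 (chr11:6701616-6704571, minus strand) was at 128.31 and 124.37 TPM with si-NT at 144 h, at 77.95 and 89.64 TPM with siRNA 2, and at 79.45 and 76.07 TPM with siRNA 3. No depleted library came near the controls, and the log2 fold change was -0.64 ± 0.15 (SE, limma adjusted p = 0.00973), though at 72 h the si-NT libraries themselves had been at 125.51 and 88.05 TPM. MRPL35 (chr2:86426478-86440913, plus strand) went from 48.13 and 52.35 TPM with si-NT to 38.64 and 27.9 TPM with siRNA 2 and 34.26 and 28.26 TPM with siRNA 3. Its log2 fold change was -0.63 ± 0.14 (limma adjusted p = 0.00739), and the siRNA 2 replicates differed from each other by more than the higher of them did from the lower control.

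MRPL3 (chr3:131181056-131221827, minus strand), a relative of the bacterial protein L3 near the catalytic centre, had the tightest depleted group of the 5. Its si-NT libraries were at 151.72 and 176.31 TPM at 144 h, those with siRNA 2 at 112.66 and 115.5 TPM, and those with siRNA 3 at 119.58 and 112.4 TPM. The fall was 0.50 on the log2 scale (SE 0.10, limma adjusted p = 0.0049), while at 72 h the value was -0.02 with groups that overlapped. MRPL4 (chr19:10362577-10370731, plus strand) was at 158.56 and 156.32 TPM with si-NT and at 104.66, 134.34, 94.56 and 103.12 TPM after depletion, where a library with siRNA 2 (replicate 2) was well above the other three. Its log2 fold change was -0.54 ± 0.14 (limma adjusted p = 0.0156). MRPL19 (chr2:75873909-75917977, plus strand) was at 78.33 and 90.92 TPM with si-NT and between 54.07 and 63.7 TPM after depletion (-0.53 ± 0.11, limma adjusted p = 0.00567). The other 9 calls of the large subunit were MRPL47, MRPL16, MRPL11, MRPL2, MRPL58, MRPL42, MRPL24, MRPL10 and MRPL37, with log2 fold changes between -0.26 (MRPL37) and -0.46 (MRPL47).

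Values are given for 4 further large-subunit genes, of which MRPL58 and MRPL24 were called. MRPL58, also called ICT1, is a peptidyl-tRNA hydrolase built into the large subunit, and it was at 99.13 and 104.28 TPM with si-NT and between 73.22 and 77 TPM after depletion at 144 h (-0.43 ± 0.14, limma adjusted p = 0.0455). This call was lost in 12 of the alternatives, the replicate block and no filter among them, and without each of the 6 libraries of that time. MRPL24, among the most abundant members, went from 334.9 and 362.68 TPM to between 248.55 and 289.71 TPM (-0.37 ± 0.11, limma adjusted p = 0.0297; lost in 7 alternatives). MRPL12, which also binds the mitochondrial RNA polymerase, did not pass the test: it was at 173.73 and 182.95 TPM with si-NT and at 128.27, 156.24, 122.17 and 156.44 TPM after depletion (-0.35 ± 0.13, limma adjusted p = 0.0814). MRPL39 had the third largest negative value of all members, -0.59 ± 0.21, but its libraries were spread and it was not called (limma adjusted p = 0.0669).

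In the small subunit the 5 calls were MRPS18A, MRPS2, MRPS30, MRPS25 and MRPS35. MRPS2 (chr9:138391830-138396519, plus strand), a relative of bacterial S2, was at 148.14 and 152.01 TPM with si-NT at 144 h, at 96.66 and 110.85 TPM with siRNA 2, and at 105.12 and 111.12 TPM with siRNA 3. The 2 controls agreed closely, every depleted library was lower, and the adjusted p was the lowest of all members (log2 fold change -0.50 ± 0.09, limma adjusted p = 0.00363). MRPS18A was at 66.54 and 69.69 TPM with si-NT, at 43.03 and 51.38 TPM with siRNA 2, and at 45.92 and 50.45 TPM with siRNA 3 (-0.51 ± 0.11, limma adjusted p = 0.00757). Its depleted level at 144 h was close to that at 72 h, 47.7 ± 3.92 and 51.8 ± 4.57 TPM (SD, n = 4).

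MRPS30 (chr5:44809049-44820530, plus strand) was at 61.31 and 64.82 TPM with si-NT and at 43.75, 44.14, 48.91 and 44.03 TPM after depletion (-0.47 ± 0.11, limma adjusted p = 0.00982). MRPS25 (chr3:15051118-15106846, minus strand) went from 99.84 and 102.12 TPM to between 70.14 and 81.84 TPM, a value of -0.41 ± 0.13 (limma adjusted p = 0.0367; lost in 9 alternatives). MRPS35 (chr12:27863755-27909228, plus strand) had the smallest called change of the set, from 101.76 and 107.42 TPM to between 85.28 and 88.9 TPM (-0.25 ± 0.08, limma adjusted p = 0.0397). Its call was lost in 11 alternatives, the replicate block and each left-out library of that time among them.

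**Figure D3:**
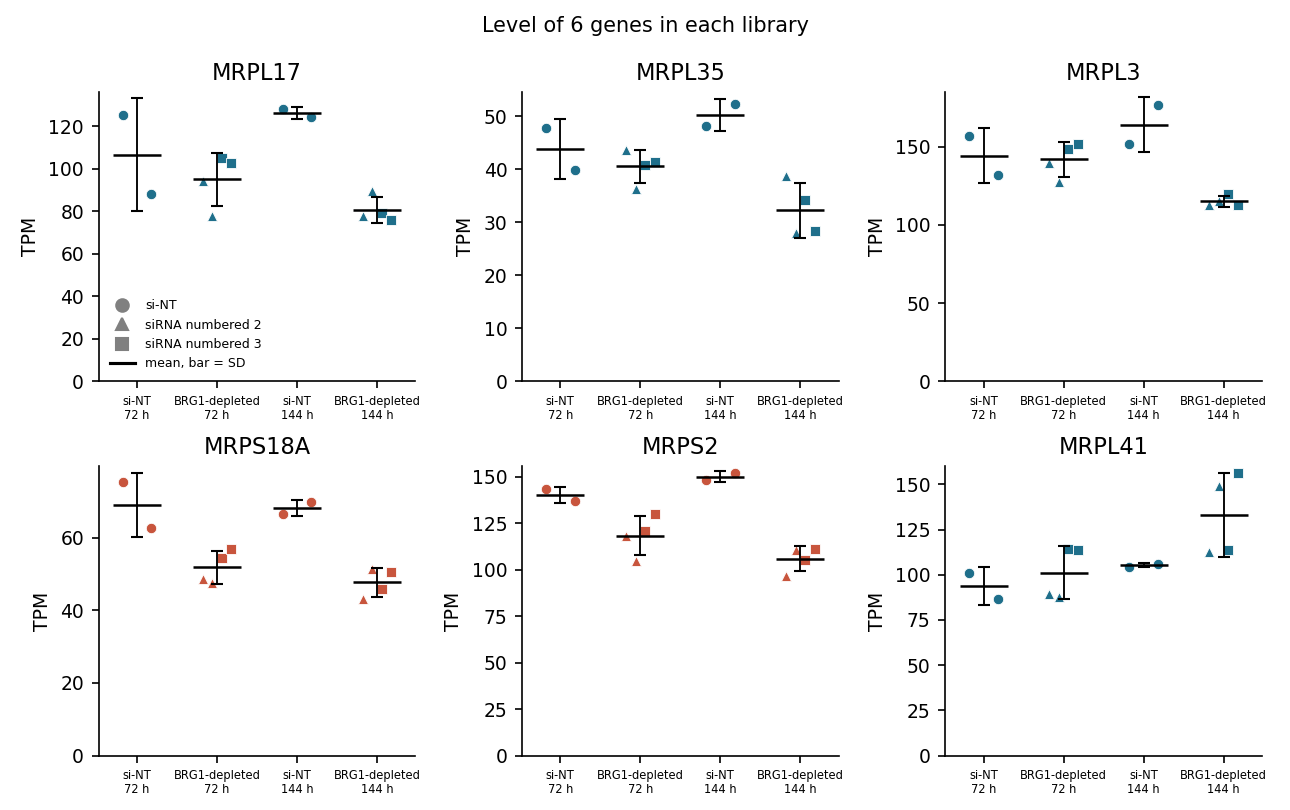
TPM (y axis, from 0) of 6 genes in the 12 libraries, by group on the x axis, with each point a library, its shape the siRNA, the line the mean and the bar the SD. For MRPL17, MRPL35, MRPL3, MRPS18A and MRPS2 the 4 depleted libraries at 144 h lie below both si-NT libraries of that time, and for MRPL41 they lie above them.

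The 3 genes of the MRPS18 family, which arose by duplication and encode related proteins at different places of the ribosome, gave different values. MRPS18A is described above. MRPS18C was at 77.4 and 98.85 TPM with si-NT at 144 h and between 60.77 and 74.7 TPM after depletion (-0.37 ± 0.20, limma adjusted p = 0.203). MRPS18B was at 26.66 and 26.94 TPM with si-NT and between 24.57 and 27.41 TPM after depletion (-0.05 ± 0.36, limma adjusted p = 0.942). The wide SE of MRPS18B came with a library of the other time point: with siRNA 3 at 72 h, replicate 2 was at 80.29 TPM where the other 11 libraries lay between 23.49 and 32.6 TPM. Whether the 3 genes differ from each other was not tested.

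No member was called higher at 144 h. The largest value was that of MRPL41, a large-subunit gene with a short transcript, at 104.44 and 106.09 TPM with si-NT and at 112.76, 149.23, 113.75 and 156.33 TPM after depletion. All 4 depleted libraries were above both controls, but with both siRNAs replicate 2 stood far above replicate 1, and the value was 0.32 ± 0.16 (limma adjusted p = 0.179; -0.08 with scaling to the spike-ins). MRPS21 was next at 0.29 ± 0.13 (limma adjusted p = 0.132, and -0.11 with that scaling), from 26.38 and 26.04 TPM to between 29.81 and 33.49 TPM. With MRPL54, which encodes another large-subunit protein, 3 of 77 members had each depleted library above both controls (3.9%, against 26.1% of all genes). MRPS36, the dehydrogenase subunit, was at 62.19 and 66.8 TPM with si-NT and between 50.79 and 65.08 TPM after depletion (-0.16 ± 0.14, limma adjusted p = 0.433).

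The abundant and the rare members gave no common picture at 144 h. MRPL20, the most abundant, was at 355.35 and 406.9 TPM with si-NT and between 381.74 and 440.1 TPM after depletion (0.13 ± 0.11, limma adjusted p = 0.409, and -0.27 with scaling to the spike-ins), while MRPL51 was at 326.48 and 367.81 TPM and then between 263.63 and 305.01 TPM (-0.25 ± 0.12, limma adjusted p = 0.146). MRPS15, MRPS34 and MRPS33 had values of -0.12, -0.07 and -0.30, none of them called. Among the rare members, MRPL30, MRPL50 and MRPL44 had values of -0.38, -0.41 and -0.18, and MRPS10 and MRPS31 of -0.07 and -0.36, again with no call. Over the 77 members the Spearman correlation of the mean TPM with the log2 fold change at 144 h was 0.13.

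In the large subunit, genes with longer transcripts had lower values at 144 h. Over its 48 genes the log2 fold change at 144 h and the length of the canonical transcript (GENCODE 44, 496 to 15557 nt) had a Spearman correlation of -0.60, against -0.13 over the 29 small-subunit genes and -0.04 over 12001 tested protein-coding genes with a length. These are correlations across genes of the same libraries, and genes are not independent replicates. Of the 26 members with the shortest transcripts (up to 999 nt) 2 were called lower, of the next 25 (1009 to 1550 nt) 7, and of the 26 longest (from 1605 nt) 10. Among tested protein-coding genes in the same length ranges the shares called lower were 8.78%, 11.9% and 13.2%. The GC content of the transcript ran with it, with correlations of 0.51 in the large subunit, 0.04 in the small subunit and 0.25 over protein-coding genes, so longer and more AT-rich transcripts of the large subunit had the lower values. MRPL41 (582 nt, 66.7% GC) had the highest GC content of the members, and MRPL35 was at 3723 nt and 39.9% GC, away from the ends of both scales. Not every gene followed the trend: MRPL4 (1218 nt, 63.6% GC) was called at -0.54. The part of length or base composition in the change was not tested.

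**Figure D4:**
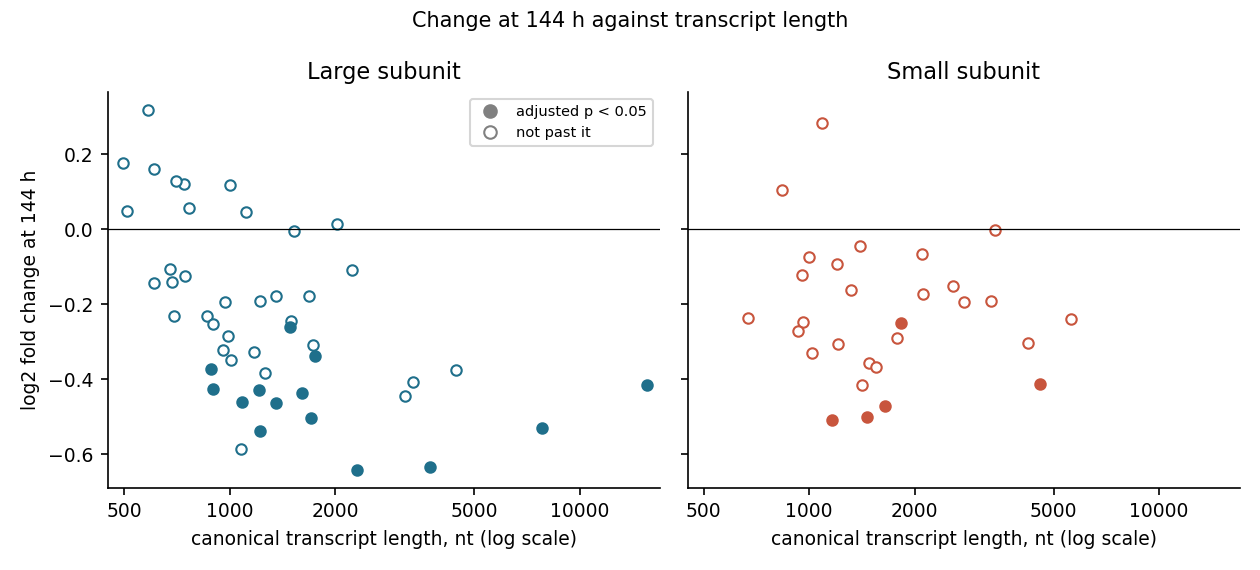
Log2 fold change at 144 h (y axis) against the length of the canonical transcript in nt (x axis, log scale) for the large subunit (left) and the small subunit (right), with each point a gene, filled where the limma adjusted p is below 0.05. Values fall with length in the left panel (Spearman correlation -0.60) and show little relation in the right panel (-0.13).

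The siRNAs gave different values at 72 h and like values at 144 h, though no difference between them was called for a member. With siRNA 2 the median at 72 h was -0.17 and 65 of 77 values were below 0, and with siRNA 3 it was 0.05 and 28 were below 0, with 0 called for either (0.63% and 0.226% of all genes were called lower, 0.937% and 0.428% higher). The siRNA 2 medians include replicate 2 at 72 h, whose sums (4445.2 and 2402.6 TPM) were the lowest of the 12 libraries in both subunits. In the direct comparison of siRNA 2 with siRNA 3 at 72 h, 69 of 77 values were below 0 (51.2% of all genes) with a median of -0.24. None was called, where 0.122% of all genes were lower and 0.0184% higher, and at an unadjusted p below 0.05 there were 15 lower (5.39%) and 0 higher (2.94%). At 144 h the medians against si-NT were -0.28 and -0.23, and 15 members were called lower with siRNA 2 (7.67% of all genes) and 14 with siRNA 3 (10.4%), and 0 higher with either (13.6% and 9.83%). The 8 called with each siRNA were MRPS18A, MRPS30, MRPL3, MRPL19, MRPS2, MRPL35, MRPL47 and MRPL17. They were 8 of 77 members, where 891 of all 16337 tested genes (5.45%) were lower with both. As a part of the genes called lower with siRNA 2 and with siRNA 3, the overlap was 8 of 15 and 8 of 14 members. Over all genes it was 891 of 1253 and 891 of 1701. The comparisons of each siRNA with si-NT share the 2 si-NT libraries of that time.

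Between the siRNAs at 144 h no member was called (median -0.03, 0.178% of all genes called lower and 0.153% higher), with 3 members lower (3.41%) and 2 higher (9.9%) at an unadjusted p below 0.05. The widest differences were in MRPS23 and MRPS9, both of the small subunit. MRPS23 was at 123.81 and 123.56 TPM with siRNA 2 and at 94.86 and 91.27 TPM with siRNA 3, beside 121.12 and 132.94 TPM with si-NT. The siRNA 2 libraries lay within the range of the controls and those with siRNA 3 below it, but the difference of 0.41 ± 0.12 had a limma adjusted p of 0.199. MRPS9 went the other way, at 39.13 and 41.05 TPM with siRNA 2 and 49.93 and 51.06 TPM with siRNA 3, all below the 59.43 and 61.19 TPM of si-NT (difference -0.33 ± 0.10, limma adjusted p = 0.236).

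No member was called for a difference between the time points. The change at 144 h minus the change at 72 h had a median of -0.18 over the members (-0.03 over all genes) and was below 0 in 66 of 77 (53.6% of all genes). By limma 0 members were called, where 0.00612% of all genes were lower and 0.0122% higher, and at an unadjusted p below 0.05 MRPL3, MRPL17, MRPL19, MRPL35, MRPS27 and MRPS31 were lower (6 of 77, against 6.35%) and 0 higher (5.54%). In the si-NT libraries alone, levels at 144 h were somewhat above those at 72 h, with a median of 0.11 (0.00 over all genes) and 11 of 77 values below 0 (49.7% of all genes). By limma 0 members were called in that comparison, as were 0% of all genes in both directions, and 0 had an unadjusted p below 0.05 (2.57% of all genes lower and 1.54% higher). The large-subunit sums of the si-NT libraries overlapped between the times, at 5888.2 and 4925.5 TPM at 72 h and 5599.7 and 6058.4 TPM at 144 h. With only 2 si-NT libraries at each time, the control level at 144 h enters the depletion contrast of that time. When the 4 si-NT libraries were pooled, an alternative chosen after seeing the data, 21 members were called lower at 144 h. That is 27.3%, where 13.6% of all genes were called lower, against 24.7% and 10.8% with the si-NT libraries of each time kept apart. At 72 h 2 members were called in that fit, and the share of all genes is not given here.

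Other genes of mitochondrial protein synthesis were taken from lists by function. Their calls too rested on the controls: without si-NT replicate 2 at 144 h, C1QBP, MRRF, TWNK, MYC and NGRN were the genes of these lists still called. The counts of these lists stand beside 10.8% of all tested genes called lower and 13.6% called higher at 144 h. Of 17 translation factors 8 were called lower (47.1%) and 1 higher (5.88%), with a median of -0.32. MRRF, which recycles ribosomes after termination, fell by 0.74 on the log2 scale (SE 0.09, limma adjusted p = 0.000277), with 77.09 and 75.75 TPM with si-NT and 39.95 to 49.6 TPM after depletion. C1QBP, a multifunctional matrix protein needed for mitochondrial translation, fell by 0.77 (SE 0.11, limma adjusted p = 0.00088), and MTRFR, a release factor relative that rescues stalled ribosomes, rose by 0.44 (SE 0.10, limma adjusted p = 0.00688). Of 24 assembly factors 8 were called lower (33.3%) and 2 higher (8.33%), with a median of -0.24, among them RMND1 (-0.53) and the helicase DDX28 (-0.50) lower, and MTERF4 (0.56), which brings the methyltransferase NSUN4 to the ribosomal RNA, and NGRN (0.42) higher. Of the 5 ribosome proteins with other names, PTCD3 (mS39) was called lower at -0.75 ± 0.14 (limma adjusted p = 0.00359), while DAP3, AURKAIP1, CHCHD1 and GADD45GIP1 had values between -0.10 and 0.17 and were not called.

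On the TPM scale none of the RNAs made inside the organelle was called lower at 144 h. With scaling to the spike-ins none of them was called in either direction. Both ribosomal RNAs were called higher on the TPM scale: MT-RNR2, the large-subunit RNA, was at 8794.1 and 8275.46 TPM with si-NT and between 10744.2 and 13057.25 TPM after depletion (0.49 ± 0.11, limma adjusted p = 0.00834), and MT-RNR1, the small-subunit RNA, was at 2644.21 and 2559.18 TPM and then between 3102.06 and 3606.18 TPM (0.40 ± 0.10, limma adjusted p = 0.013). Of the 13 mitochondrially encoded mRNAs 0 were called lower and 2 higher, MT-ND3 (0.46) and MT-ND1 (0.41), with a median of 0.17. That is 15.4% called higher, near the 13.6% of all tested genes. Of the 13 values 3 were below 0, the lowest at -0.19. The libraries were made with a kit that selects polyadenylated RNA, so the level of the ribosomal RNAs is that of the molecules this selection kept. When libraries were scaled to the spike-ins instead, MT-RNR1 was at -0.01, and the median of all genes at -0.31.

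Of 12 genes for the transcription and replication of mitochondrial DNA 3 were called lower (25.0%, against 10.8% of all genes) and 0 higher (13.6%) at 144 h, led by TFAM, the packaging and transcription factor of mitochondrial DNA (-0.70 ± 0.17, limma adjusted p = 0.0115), and TWNK, its helicase (-0.62 ± 0.10, limma adjusted p = 0.00197). Of 9 transcription factors and coactivators known for nuclear genes of mitochondria 5 were called lower (55.6%) and 0 higher. MYC was at 215.91 and 194.79 TPM with si-NT and between 88.89 and 99.75 TPM after depletion at 144 h (-1.12 ± 0.09, limma adjusted p = 3.86e-05), and it was also the only gene of the list called at 72 h (-0.49 ± 0.09, limma adjusted p = 0.0292). PPARGC1A, counted among the 5, was low throughout, at 1.32 and 1.4 TPM and then between 0.13 and 0.42 TPM (-0.90 ± 0.18, limma adjusted p = 0.00531). Every depleted library of both times was below the 1 TPM of the filter, so PPARGC1A was tested only because of its si-NT libraries. The size of its fall is uncertain at such levels, and its value ran from -2.06 to -0.74 over the alternatives. GABPA, which binds the ETS motif, was at -0.15, YY1 at -0.20 and NRF1 at -0.34 (limma adjusted p = 0.0769), and none of these was called. Members with the ETS motif had a median of -0.24 at 144 h and those without it -0.26, with 5 of 29 and 11 of 39 called lower. For the YY1 motif the medians were -0.23 and -0.25, with 5 of 22 and 11 of 46 called. With and without the NRF1 motif they were -0.23 and -0.25, with 1 of 7 and 15 of 61 called. With and without the E-box they were -0.26 and -0.24, with 1 of 5 and 15 of 63 called. The part of any motif in the change was not tested.

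**Figure D5:**
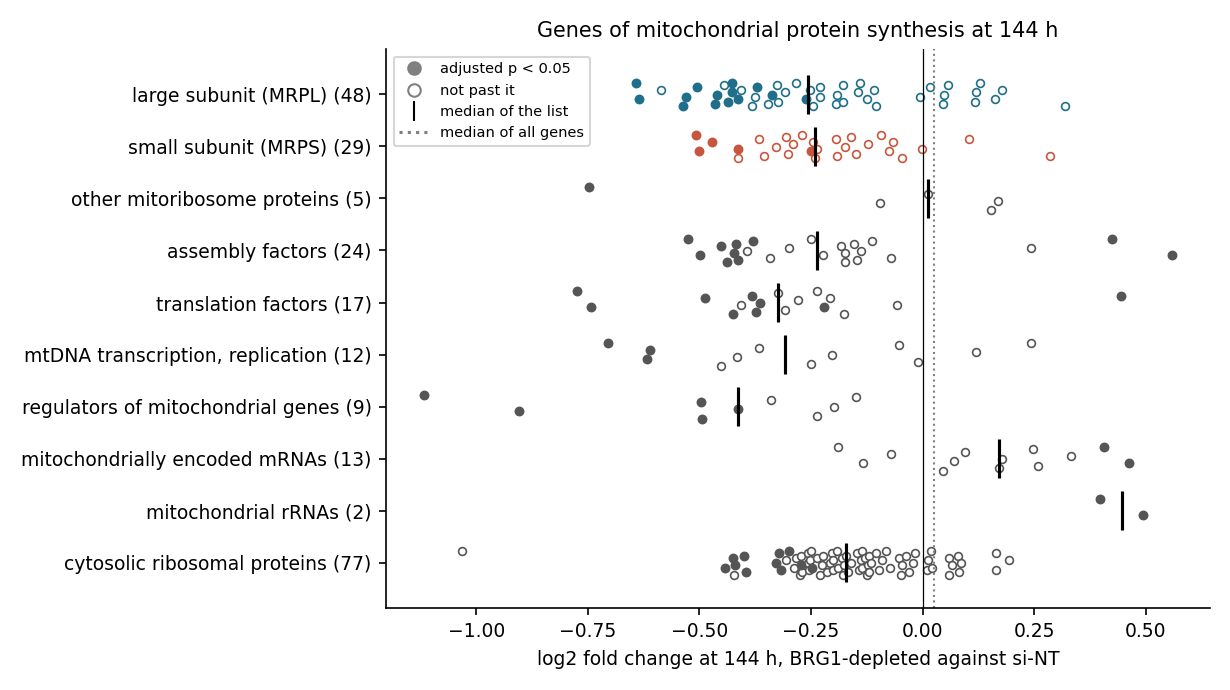
Log2 fold change at 144 h (x axis) of the genes of each list (rows, with the number of genes), with each point a gene, filled where the limma adjusted p is below 0.05, a black bar for the median of the list and a dotted line for the median of all genes (0.03). Medians of the nuclear lists lie below 0 except for the 5 ribosome proteins with other names, and the RNAs of the mitochondrial genome lie mostly above it.

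Genes of the cytosolic ribosome were called lower at a share near that of all genes, but most of their values at 144 h were below 0. Of 77 cytosolic ribosomal protein genes 11 were called lower (14.3%, against 10.8% of all tested genes) and 0 higher (13.6%) at 144 h, and the median was -0.17. Of the 77 values 64 were below 0 (83.1%, against 47.3% of all genes and 84.4% of the mitochondrial set). In 32 of these genes each depleted library was below both si-NT libraries (41.6%, against 22.5% of all genes). Of the 11 calls, 2 were left without si-NT replicate 1 at 144 h (RPL5 and RPL14), and 0 without si-NT replicate 2 or with scaling to the spike-ins. At 72 h both sets had 0 calls, with medians of -0.09 and -0.07. In the si-NT libraries between the times the cytosolic set had a median of -0.04 and the mitochondrial set of 0.11. Whether the sets differ was not tested.

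Many of these genes share their promoter region with a neighbour. Of the 77, 17 had a protein-coding gene starting within 1000 bp on the opposite strand and pointing away (22.1%, against 11.7% of 11998 other tested protein-coding genes). MRPL46 and MRPS11 form such a pair with each other, 63 bp apart on chromosome 15, and had values of -0.28 and -0.00 at 144 h, neither called. The median of the 17 members at 144 h was -0.23 and that of their neighbours -0.00. Of the 17 neighbours 2 were called lower, a share near the 10.8% of all tested genes: EME1 beside MRPL27 and SKA3 beside MRPL57, and neither of those members was called. MRPL47, called lower at -0.46, lies 41 bp from NDUFB5, a gene of respiratory complex I with a value of 0.12. In addition 37 members overlap another protein-coding gene in the annotation (26 on the other strand and 13 on the same), 8 of them among the 19 called, MRPS2, MRPS18A, MRPS25 and MRPL19 included. The sources used here do not give the strand setting of the counting, so reads of such overlaps may be shared.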

How the data were processed

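The processed table holds TPM per gene, which the authors deposited for 12 libraries made with a stranded mRNA kit and ERCC spike-ins; reads were trimmed with Trim Galore 0.11.2, mapped to hg19/GRCh37 with STAR 2.4.0j and counted with featureCounts against GENCODE 19 per the study's methods and notes. The strand setting and the tool for TPM are not given in the sources used here. TPM keeps no read depth, so counting intervals cannot be given, and all columns share the same total, so values are relative to all other RNA. Symbols, lengths and positions come from GENCODE 44 on GRCh37, matched by gene ID for 87.6% of genes. MRPL45 was matched to no ID and is not analysed here.

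TPM was taken to log2 after adding 1, and the 16337 genes at or above 1 TPM in 2 or more libraries were fitted with limma 3.58.1 (R 4.3.3, eBayes with a trend) in 4 groups, with Benjamini-Hochberg adjustment over all of them; called means an adjusted p below 0.05. Fold changes of low genes are understated on this scale. Each siRNA on its own was fitted in 6 groups. Count models were not used. The procedure was tested on simulated data. Means are given with the SD, fold changes with the SE. Members and lists were chosen with earlier results of these data known. The genes named were SMARCA4, the 5 largest called falls and rises of each subunit at 144 h, the 3 highest and lowest levels of each, members called at 72 h or between times, the 2 widest siRNA differences, MRPS18A, MRPS18B, MRPS18C, MRPL12, MRPS36, MRPL58, and 2 falls and 2 rises of each other list; MRPL41, MRPL39, the markers and genes named with a count were added after their values were seen. In the table the siRNAs are numbered 2 and 3 and in the sample titles 1 and 2, and the labels of 1 library at 72 h disagree on its number, so each siRNA is that of the table. The alternatives tried are given under the processing heading.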

Additional observations from a re-analysis of the deposited data

Results flagged for a closer look

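In a group of 4 depleted libraries, a library was looked at again where its gap to the nearest of the others was more than 0.829 of the range of the group. Of 102 such groups, for the genes named and the sums of the subunits, 7 met this, and chance gives about 5.1. Of these, 3 were low values in siRNA 2 replicate 2 at 72 h, the library with the lowest sums: MRPL51 was at 254.39 TPM (325.63 to 333.96 TPM in the other 3), MRPL12 at 111.68 TPM (136.54 to 139.28 TPM) and MTRFR at 26.84 TPM (31.49 to 32.42 TPM). In siRNA 3 replicate 2 at 72 h, MRPS18B was at 80.29 TPM (23.49 to 32.6 TPM in the other 3) and NGRN at 115.74 TPM (the lowest of the other 3 was at 97.52 TPM). At 144 h, MRPS30 was at 48.91 TPM in siRNA 3 replicate 1 (43.75 to 44.14 TPM in the other 3) and MRPS35 at 85.28 TPM in siRNA 2 replicate 2 (88.47 to 88.9 TPM). No interaction of depletion with time was called for a member.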

How the results depend on the processing

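The 19 members called lower at 144 h were 0 with ERCC scaling (40 with an unadjusted p below 0.05), 11 with no filter, 7 at an adjusted p below 0.01 and 7 with a log2 fold change beyond 0.5 added, and between 0 and 28 when a library was left out (0 without si-NT replicate 2 at 144 h, 6 without replicate 1, 10 without siRNA 2 replicate 1, 28 without siRNA 2 replicate 2 at 72 h). Members called lower were 19 with 0.1 added in place of 1, 20 with a filter at a mean TPM of 5, and 15 with median-of-ratios scaling. They were 23 with quantile normalisation, 13 with eBayes without a trend, 22 with only the libraries of 144 h, and 22 in 6 groups. The share of all genes called lower moved too, from 10.8% as reported. It was 3.76% with ERCC scaling, 4.75% with no filter, 13.4% with the filter at a mean TPM of 5 and 12.8% with median-of-ratios scaling. With quantile normalisation it was 13.8%, without a trend 10.1%, with only the libraries of 144 h 9.64% and in 6 groups 12.1%. It is not given for the stricter thresholds. No alternative called a member higher at 144 h. Over all tested genes the replicate numbers showed little pairing (correlations of deviations from -0.229 to 0.3 over the pairs of conditions), and the replicate block left 15 of the 19. The summed levels of both subunits at 144 h were higher in replicate 2 than in replicate 1 with si-NT and with each siRNA. At 72 h they were lower in replicate 2 with si-NT and siRNA 2 and higher with siRNA 3. A replicate effect in these genes was not tested. At 72 h the count of 0 became 2 with the si-NT libraries of both times combined. The count stayed at 0 under the alternatives run for the change between times, the si-NT comparison and the siRNA comparison. Of the 19 calls, MRPL37 was lost in 14 alternatives, MRPL2 and MRPL58 in 12, MRPS35 in 11, MRPL11 in 10, MRPS25 in 9, MRPL24 and MRPL42 in 7, and the other 11 in 2 to 5. The large minus small difference of medians at 144 h ranged from -0.0489 (without siRNA 3 replicate 1, beyond the replicate spread of 0.0439) to 0.0014 (without si-NT replicate 2), and at 72 h it ranged from -0.0737 to -0.0004 with a library left out (without siRNA 2 replicate 1 and si-NT replicate 1). ERCC scaling moved the median of all genes at 144 h to -0.31 and that of the members to -0.65, so the members lay 0.33 below all genes there and 0.27 below in the values reported, and with it 77 of 77 members were below 0; it turned MRPL20 to -0.27, MRPS21 to -0.11, MRPL41 to -0.0821 and MT-RNR1 to -0.0057. With a library left out, MRPS10 ranged from -0.18 to 0.0479 and MRPS34 from -0.16 to 0.0174. TPM keeps no read depth, so what depth limits cannot be given.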
